A study of Caenorhabditis elegans with 18 samples.

Results

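The genes elo-1 to elo-9 of Caenorhabditis elegans encode the fatty acid elongase family. They were taken by name from the gene count table, and all 9 were found among its 46904 gene identifiers. The 18 RNA-seq libraries came from whole larvae of the first stage (L1) and form 6 groups of 3. N2 is the wild type. Mutants with the allele raga-1(ok386) are defective in RagA, a GTPase that signals amino acids to TORC1, and those with rsks-1(ok1255) are defective in S6 kinase, which TORC1 phosphorylates. Per the labels, all worms were kept at 20 °C, eggs were freed by bleaching and held for 24 h in M9 buffer without food, and larvae were then taken either starved or fed for 4 h with OP50 bacteria. No matching 4 h is given for the starved larvae, so fed larvae may be older, and age cannot then be told apart from food. Each mutant is represented by a single allele, present in every cell, and is labelled with the line N2. Whether replicates were independent cultures is not stated, and the tests may then capture technical variation alone.

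Elongases carry out the first, condensing step of a cycle that lengthens a fatty acyl chain with carbons from malonyl-CoA. A ketoacyl reductase, a dehydratase and an enoyl reductase complete each round in the endoplasmic reticulum membrane. In C. elegans, elo-2 acts on palmitate, and elo-1 acts in the synthesis of long polyunsaturated fatty acids. The genes elo-5 and elo-6 make monomethyl branched-chain fatty acids from leucine-derived precursors. Larvae without elo-5 arrest at the first stage, and a glucosylceramide built on a branched-chain fatty acid is known to act upstream of TORC1 in development after hatching. No role is given here for elo-3, elo-4, elo-7, elo-8 and elo-9, which belong to the family by homology.

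Library totals ran from 9929323 to 18539402 counts, with 3 libraries a group. The targeted genes matched the labels: no count of raga-1 was found in the 6 mutant libraries, against 1878 counts summed over starved and 1716 over fed N2, and rsks-1 had a mean of 37.6 CPM (starved) and 24.8 CPM (fed) in its mutant against 186 and 171 CPM in N2. Levels are in CPM, counts relative to the library total adjusted by TMM factors, which assume that most genes do not change. The intestine, the main site of fatty acid synthesis in the worm, was followed with 7 markers, all of them detected in every library. Their summed level ran from 2235.3 to 2271.0 CPM in starved N2 and 4391.7 to 4463.4 in fed N2, 2988.4 to 3057.4 and 3498.3 to 3591.6 in raga-1, and 2751.8 to 2775.5 and 3650.9 to 3689.6 in rsks-1. In fed larvae much of this sum is the intestinal actin act-5. Its mean went with feeding from 322 to 2309.3 CPM for N2, from 1120.6 to 1546.6 CPM for raga-1 and from 554 to 1917.1 CPM for rsks-1. In starved N2 and starved rsks-1 the largest part was instead ifb-2, with means of 1242.1 and 1487.6 CPM. Fed larvae of these genotypes had less of it, with means of 772 and 811 CPM. The markers did not move together on feeding. For N2 3 were called higher and 3 lower, where 36.5% and 37.4% of all genes tested were. For raga-1 3 were higher and 2 lower (29.4% and 32.9% of all genes), and for rsks-1 4 higher and 2 lower (35.7% and 35.2%). The part of tissue make-up in the results was not tested, and in whole larvae fewer cells of a type and less RNA per cell cannot be told apart.

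In the WBcel235 annotation 6 of the genes lie on chromosome IV. On its plus strand elo-1 (WBGene00001239) spans 9526366 to 9528336, and elo-7 (WBGene00001245, 9529947 to 9531400) follows it at a gap of 1610 bases. On the minus strand elo-5 (WBGene00001243, 5374616 to 5377117) and elo-6 (WBGene00001244, 5386629 to 5388559) lie 9511 bases apart with 3 protein-coding genes between them. The gene elo-2 (WBGene00001240) spans 17466062 to 17467408 on the minus strand, and elo-3 (WBGene00001241) spans 7237718 to 7240488 on the plus strand. Elsewhere elo-4 (WBGene00001242, III, 9332269 to 9334274) and elo-8 (WBGene00001246, III, 11230377 to 11232069) lie on chromosome III, and elo-9 (WBGene00001247, II, 14959526 to 14964108) on chromosome II, all on the minus strand. The encoded proteins have 274 residues each for elo-2, elo-5 and elo-6, and between 286 and 320 residues for the other members. All 162 elo values in the gene table were whole to within 0.005, so no count was visibly divided with another gene. Exons of elo-5 share 162 bases with F41H10.3 on the opposite strand, those of elo-3 share 44 bases with gstk-2, those of elo-4 share 16 bases with ufc-1, and those of elo-7 share 64 bases with F56H11.2. Strandedness of the libraries is not given in the sources used here, so reads in those stretches cannot be assigned. F41H10.3 was at 63.8 to 72.9 CPM as a group mean in all 6 groups and was not called on feeding in any genotype, whereas gstk-2 was called lower in fed N2 (log2 change -1.72, SE 0.10).

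Per kilobase of annotated exon, elo-1 was the most abundant member in every group and elo-6 was the next. In starved N2 elo-1 was at 418 ± 0.727 and elo-6 at 378 ± 6.19 CPM per kilobase (SD, n = 3 libraries here and below). The genes elo-5 and elo-2 followed at 140 ± 2.64 and 138 ± 2.79 CPM per kilobase, whose spreads overlap, and elo-3 was at 42.3 ± 0.315. The least abundant of the clearly detected members was elo-9, at 6.4 ± 0.654 CPM per kilobase. Unequal coverage along transcripts would also move these values between genes.

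The remaining members were near the detection limit. The gene elo-4 had 2 to 22 counts per library and elo-8 had 1 to 14. For elo-7, 6 counts were found in all, in 5 of the 18 libraries, and the 6 raga-1 libraries held none. A count of 0 allows up to 3 counts, which is 0.142 to 0.353 CPM depending on the library. The minimum count used for testing left 7 members among 14073 genes, with elo-7 and elo-8 outside and elo-4 just inside it, so 7 of 9 were tested.

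A single transcript form held most counts of elo-1 and elo-5. The form F56H11.4a.1 took 99.1 to 99.9% of elo-1 counts in every library. The form F41H10.7.1 took 75.01 to 100% of elo-5 counts with a median of 95.3%, and its lowest share was in starved raga-1 replicate 2, where elo-5 had 271 counts. Of elo-8, with 99 counts in 18 libraries, no share can be read.

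The first question was how the family responds when arrested wild-type larvae are fed. In N2 all 6 well-detected members rose, between 1.43-fold for elo-6 and 3.61-fold for elo-9. In all, 6 of 7 tested members were called higher and 0 lower by edgeR's quasi-likelihood (QL) test at an adjusted p below 0.05. Over all genes tested 73.9% were called, 36.5% higher and 37.4% lower, and the median log2 change was 1.18 for the 7 members against -0.07 for all genes.

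The branched-chain elongase elo-5 stood at 132, 128 and 128 CPM in starved N2 (replicates 1 to 3 here and below) and at 341, 326 and 327 CPM in fed N2. In raga-1 mutants it stood at 18, 17.8 and 19.3 CPM starved and 116, 122 and 117 CPM fed. In rsks-1 mutants it stood at 43.7, 41.8 and 44.8 CPM starved and 344, 351 and 348 CPM fed. Every fed library was above every starved library of its genotype, and the 3 fed raga-1 libraries were below the 3 starved N2 libraries. The log2 rise of elo-5 on feeding was 1.36 in N2 (SE 0.04, adjusted p = 7.38e-65, edgeR QL), 2.68 in raga-1 (SE 0.05) and 3.00 in rsks-1 (SE 0.04). Its highest group mean was 18.9 times its lowest, the widest span among the 7 tested members.

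The second branched-chain elongase, elo-6, had 356, 345 and 348 CPM in starved and 503, 516 and 486 CPM in fed N2. Its raga-1 levels were 90.6, 84.3 and 93.4 CPM starved and 239, 232 and 241 CPM fed. Its rsks-1 levels were 156, 146 and 150 CPM starved and 534, 539 and 548 CPM fed. The groups kept the order seen for elo-5, with fed rsks-1 at the top, then fed N2, starved N2, fed raga-1, starved rsks-1 and starved raga-1, and no neighbours in that order overlapped for either gene. The log2 rise of elo-6 on feeding was 0.52 in N2 (SE 0.03, adjusted p = 1.39e-30, edgeR QL), 1.41 in raga-1 (SE 0.04) and 1.84 in rsks-1 (SE 0.03). With library totals in place of TMM factors the N2 rise was 0.22.

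The counts of elo-5 relative to elo-6 within a library do not depend on scaling. In N2 that ratio was 0.370 ± 0.00205 starved and 0.661 ± 0.0252 fed. For raga-1 it was 0.205 ± 0.00646 before and 0.499 ± 0.0224 after feeding, and for rsks-1 0.288 ± 0.0102 before and 0.644 ± 0.00770 after. In each genotype the fed and starved ranges of the ratio were apart, so elo-5 changed by more than elo-6 on feeding.

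The palmitate elongase elo-2 had 146, 144 and 141 CPM in starved and 489, 512 and 480 CPM in fed N2. In raga-1 it had 49.8, 53.8 and 53.0 CPM starved and 223, 226 and 219 CPM fed. In rsks-1 it had 58.7, 54 and 57.0 CPM starved and 478, 477 and 458 CPM fed. Fed libraries were again above starved ones in every genotype, and the 3 fed raga-1 libraries lay between starved and fed N2. It rose 3.44-fold in N2, 4.27-fold in raga-1 and 8.33-fold in rsks-1 (log2 changes 1.78, 2.09 and 3.06, SE 0.04, 0.04 and 0.04). The means of starved raga-1 and starved rsks-1 were 52.2 and 56.6 CPM, and their ranges were apart by little, with 53.8 CPM as the highest library of the former and 54 CPM as the lowest of the latter.

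The polyunsaturated fatty acid elongase elo-1 was at 443, 445 and 443 CPM in starved and 705, 703 and 701 CPM in fed N2. Starved raga-1 libraries had 287, 282 and 274 CPM and fed ones 421, 410 and 428 CPM. Starved rsks-1 libraries had 309, 327 and 325 CPM and fed ones 802, 798 and 792 CPM. Its groups were all apart, in the same order as those of elo-5 and elo-6. Its highest mean was 2.84 times its lowest, a narrower span than that of elo-2, elo-5 or elo-6. Its log2 rise with food was 0.66 in N2 (SE 0.03, and 0.36 with library totals), 0.58 in raga-1 (SE 0.03) and 1.31 in rsks-1 (SE 0.03).

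By group means elo-3 and elo-9, like elo-2, had an order of groups that differed from that of elo-5. The orders of elo-3 and elo-9 also differed from each other. For elo-3 the levels were 66.4, 65.6 and 66.6 CPM in starved and 152, 151 and 147 CPM in fed N2. They were 73.1, 71.5 and 77.2 CPM starved and 98.1, 98.0 and 97.5 CPM fed in raga-1, and 57.0, 54.3 and 54.8 CPM starved and 144, 151 and 140 CPM fed in rsks-1. Starved raga-1 was thus above starved N2, and the fed N2 and fed rsks-1 ranges overlapped. The rise on feeding was 2.26-fold in N2, 1.32-fold in raga-1 and 2.62-fold in rsks-1 (log2 changes 1.18, 0.40 and 1.39, SE 0.05, 0.05 and 0.05).

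For elo-9 the levels were 7.42, 8.20 and 6.68 CPM in starved and 25.2, 29.0 and 26.4 CPM in fed N2. They were 12.4, 12.6 and 13.9 CPM starved and 21.1, 20.3 and 21.2 CPM fed in raga-1, and 7.54, 6.72 and 6.47 CPM starved and 22.1, 19.6 and 18.9 CPM fed in rsks-1. Starved raga-1 was above both other starved groups, which overlapped each other, and fed raga-1 overlapped fed rsks-1. The rise was 3.61-fold in N2, 1.60-fold in raga-1 and 2.92-fold in rsks-1 (log2 changes 1.85, 0.68 and 1.55, SE 0.12, 0.10 and 0.12).

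**Figure D1:**
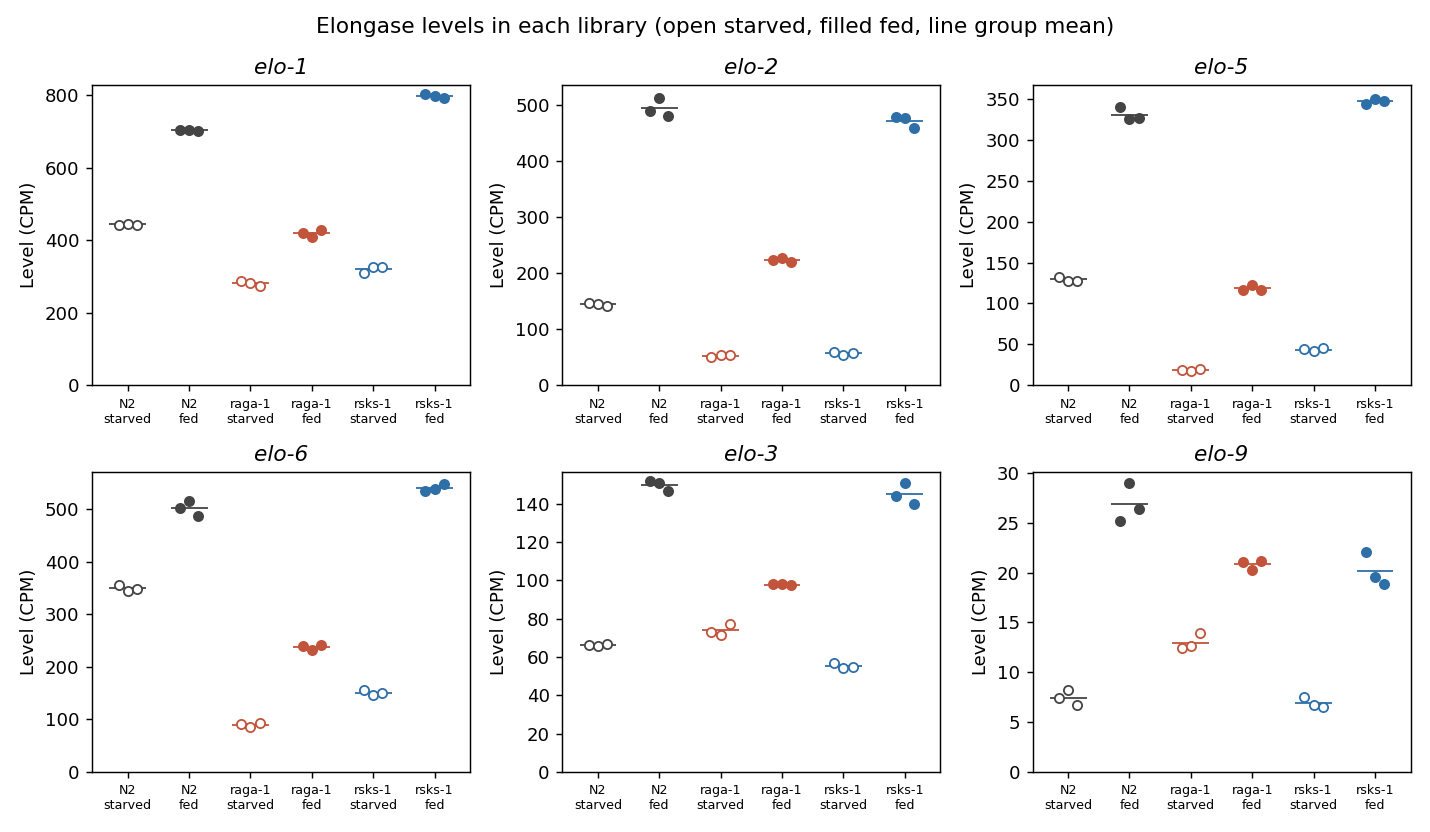
Level in CPM (y axis, from 0) of 6 elongase genes in each library of the 6 groups (x axis), starved open and fed filled, with a line at the group mean. Fed raga-1 points of elo-5 sit between 116 and 122 CPM, below the starved N2 points at 128 to 132 CPM, whereas starved raga-1 points of elo-9, at 12.4 to 13.9 CPM, are above the starved N2 points.

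The gene elo-4 was not called on feeding in any genotype, whereas ufc-1, which overlaps it and had 4531 counts against 205 for elo-4 over all libraries, was called higher in each (log2 changes 1.21, 0.42 and 1.02 in N2, raga-1 and rsks-1, SE 0.10, 0.10 and 0.10). Its counts were 2, 8 and 17 in starved and 7, 8 and 19 in fed N2, and all its neighbouring groups overlapped. The log2 change in N2 was 0.84 with a 95% interval from -0.14 to 1.81, so a several-fold rise and a slight fall are both inside it. Without starved N2 replicate 3 the value was 1.60 and passed the threshold.

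Feeding also raised 6 of 7 tested members in raga-1 and 6 of 7 in rsks-1, and lowered 0 in either. Among all genes tested, 62.4% were called in raga-1 (29.4% higher, 32.9% lower) and 70.8% in rsks-1 (35.7% higher, 35.2% lower). The median log2 change of the 7 members was 0.68 in raga-1 and 1.55 in rsks-1, against -0.05 and -0.02 for all genes. These comparisons share no library with each other or with feeding in N2.

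**Figure D2:**
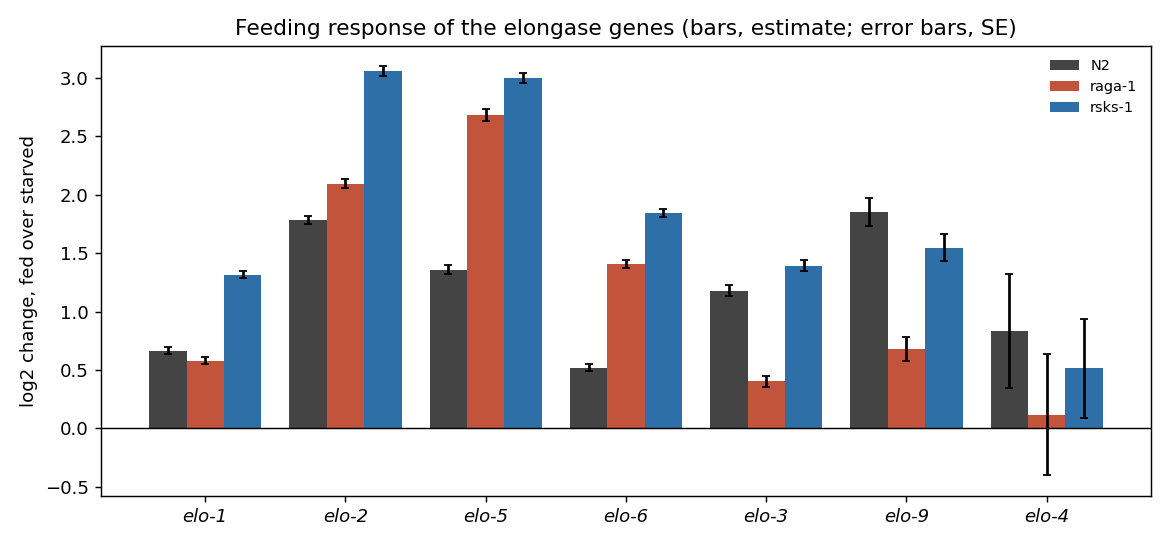
Log2 change of fed over starved larvae (y axis) for the 7 tested elongase genes (x axis) in N2, raga-1 and rsks-1, with the SE as error bars. The bars of elo-2, elo-5 and elo-6 are lowest in N2 and highest in rsks-1, while those of elo-3 and elo-9 are lowest in raga-1. Those of elo-1 and elo-4 are also lowest in raga-1, but their differences from N2 were not called.

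The next question was whether loss of raga-1 or rsks-1 changed these responses, tested as the difference between log2 changes. The raga-1 response was larger than that of N2 for elo-5 (difference 1.32, SE 0.06, adjusted p = 3.72e-40, edgeR QL), elo-6 (0.88, SE 0.05) and elo-2 (0.31, SE 0.05, and 0.51 with library totals). It was smaller for elo-9 (difference -1.17, SE 0.16) and elo-3 (-0.78, SE 0.07). So 3 of 7 tested members had a positive and 2 a negative difference, where 21.8% and 28.8% of all genes did, 50.5% in either direction. For elo-1 the difference was -0.08 with a 95% interval from -0.17 to 0.000173, which did not pass the threshold (adjusted p = 0.0913, edgeR QL). Its sign depended on the scaling, with 0.12 under library totals (adjusted p = 0.0194, edgeR QL) and 0.01 with only the compared libraries. The larger raga-1 responses of elo-5, elo-6 and elo-2 started from starved levels below those of N2 and ended at fed levels that were also below N2.

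The rsks-1 response was larger than that of N2 for 5 of 7 tested members and smaller for 0, where 10.8% and 15.8% of all genes were called, 26.6% in all. The differences were 1.64 for elo-5 (SE 0.06, adjusted p = 3.32e-53, edgeR QL), 1.32 for elo-6 (SE 0.05), 1.28 for elo-2 (SE 0.05) and 0.65 for elo-1 (SE 0.04). For elo-3 it was 0.21 (SE 0.07), which did not pass the threshold without fed rsks-1 replicate 2 (0.18). For elo-9 it was -0.31, with a 95% interval from -0.65 to 0.03. Both sets of differences share the 6 N2 libraries.

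Between the mutants, all 6 well-detected members responded less in raga-1 than in rsks-1, where 25.3% of all genes had a negative and 18.8% a positive difference, 44.0% in all. The differences were -0.99 for elo-3 (SE 0.07, adjusted p = 4.13e-28, edgeR QL), -0.97 for elo-2 (SE 0.06), -0.87 for elo-9 (SE 0.16) and -0.73 for elo-1 (SE 0.04). They were smaller for elo-6 (-0.44, SE 0.05) and elo-5 (-0.32, SE 0.07). Each equals the raga-1 difference from N2 minus the rsks-1 difference from N2, so this set is not independent of those above.

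The last question was where the levels of the mutants departed from N2. In starved larvae elo-5 was 7.01-fold lower in raga-1 and 2.98-fold lower in rsks-1 than in N2 (log2 changes -2.81 and -1.57, SE 0.05 and 0.04, adjusted p = 1.56e-87 and 4.55e-63, edgeR QL). The gene elo-6 was 3.90-fold and 2.32-fold lower (-1.96 and -1.22, SE 0.04 and 0.03). For elo-2 the levels were 2.75-fold and 2.54-fold lower (-1.46 and -1.35, SE 0.04 and 0.04), and for elo-1 1.58-fold and 1.38-fold lower (-0.66 and -0.47, SE 0.03 and 0.03). Of the 7 intestine markers, 3 were called higher and 2 lower in starved raga-1 than in starved N2 (median log2 change -0.10), and 3 higher and 1 lower in starved rsks-1 (median 0.07). Among them act-5 was higher in both, and the esterase ges-1 had a mean of 110 CPM in N2, 38.5 CPM in raga-1 and 96.5 CPM in rsks-1. The gene elo-9 was higher in starved raga-1 (log2 change 0.81, SE 0.12), and in rsks-1 its change of -0.11 was not called, with a 95% interval from -0.38 to 0.16. For elo-3 the changes were 0.16 in raga-1 (SE 0.05) and -0.26 in rsks-1 (SE 0.05), and the former did not pass the threshold without starved raga-1 replicate 3 (0.12). In all, 4 of 7 tested members were lower and 2 higher in starved raga-1, where 25.7% and 27.0% of all genes were so called, 52.7% in all. In starved rsks-1 5 of 7 were lower and 0 higher, against 11.9% and 15.1% of all genes, 26.9% in all.

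In fed larvae the mutants parted. Fed raga-1 was lower than fed N2 for 7 of 7 tested members, where 34.4% of all genes were called lower and 28.9% higher, 63.3% in all. Among the 6 well-detected members the falls were largest for elo-5 (2.80-fold, log2 change -1.49, SE 0.04, adjusted p = 1.70e-68, edgeR QL), elo-2 (2.21-fold, -1.15, SE 0.03) and elo-6 (2.11-fold, -1.08, SE 0.03). The changes of elo-1 and elo-3 were -0.74 and -0.62 (SE 0.03 and 0.05), and -0.42 and -0.30 with library totals. The calls of elo-9 (-0.36, SE 0.10) and elo-4 (-1.18, SE 0.50) were less firm. With library totals elo-9 was at -0.04 and elo-4 at -0.86, and neither passed the threshold. For elo-4 the call was also lost under DESeq2 (-1.19) and without fed N2 replicate 3 (-0.55), fed raga-1 replicate 1 (-1.10) or fed raga-1 replicate 3 (-0.96). Its overlapping gene ufc-1 was also lower in fed raga-1 (-0.81, SE 0.10). Of the 7 intestine markers, 1 was called higher and 3 lower in fed raga-1 than in fed N2 (median log2 change -0.17).

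Fed rsks-1 was within 1.34-fold of fed N2 for all 6 well-detected members. It was higher for elo-1 (1.13-fold, log2 change 0.18, SE 0.03) and elo-6 (1.08-fold, 0.11, SE 0.03) and lower for elo-9 (1.34-fold, -0.42, SE 0.10). So 2 of 7 were called higher and 1 lower, where 17.4% and 22.6% of all genes were, 40.0% in all. The values not called were 0.07 for elo-5 (95% interval -0.00182 to 0.14), -0.07 for elo-2 (-0.14 to -0.00305) and -0.05 for elo-3 (-0.14 to 0.04). The elo-2 value passed the threshold with relative log expression factors (-0.09), under DESeq2 (-0.09) and without fed N2 replicate 3 (-0.09). The elo-5 value passed it with library totals (0.14) and with only the compared libraries (0.10), and the elo-6 value failed it without fed N2 replicate 3 (0.08). With library totals elo-6 was at 0.17 and elo-3 turned to 0.02. Of the 7 intestine markers, 1 was called higher and 4 lower in fed rsks-1 than in fed N2 (median log2 change -0.27). The comparisons of the mutants with N2 in a given state share the N2 libraries of that state.

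**Figure D3:**
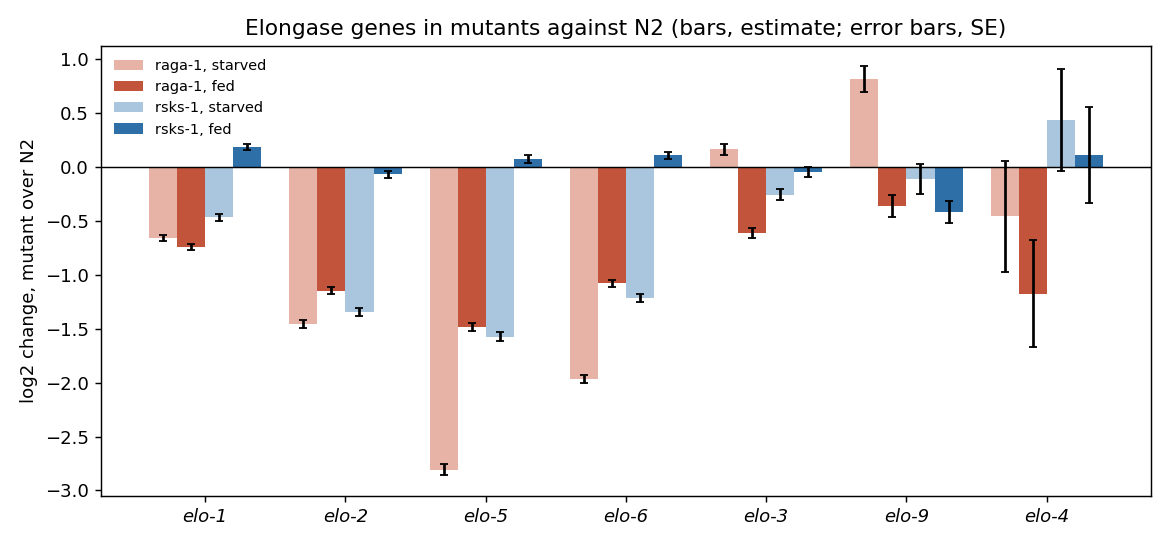
Log2 change of mutant over N2 (y axis) for the 7 tested elongase genes (x axis) in starved (pale) and fed (dark) raga-1 and rsks-1 larvae, with the SE as error bars. For elo-5 the starved bars reach -2.81 and -1.57, the fed raga-1 bar -1.49, and the fed rsks-1 bar lies at 0.07.

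These shifts changed the make-up of the family. The summed level of the 9 genes was 1141.3 ± 9.61 CPM in starved and 2208.3 ± 35.1 CPM in fed N2, 529 ± 5.01 and 1117.7 ± 7.86 CPM in raga-1, and 635 ± 4.05 and 2322.8 ± 14.8 CPM in rsks-1. Of the summed level per kilobase, elo-5 held 12.5 ± 0.122% in starved N2, 4.05 ± 0.168% in starved raga-1 and 7.73 ± 0.221% in starved rsks-1. After feeding its share was 16.6 ± 0.457% in N2, 11.9 ± 0.376% in raga-1 and 16.6 ± 0.151% in rsks-1. The share of elo-1 went the other way, at 37.2 ± 0.377% in starved N2 against 53.9 ± 1.35% in starved raga-1 and 49.6 ± 1.57% in starved rsks-1, with 30.7 ± 0.433%, 36.7 ± 0.540% and 33.0 ± 0.158% in the fed groups. The share of elo-3 was largest in starved raga-1, at 9.62 ± 0.334% against 3.76 ± 0.0344% in starved N2. These shares are set within each library and carry no scaling factor.

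**Figure D4:**
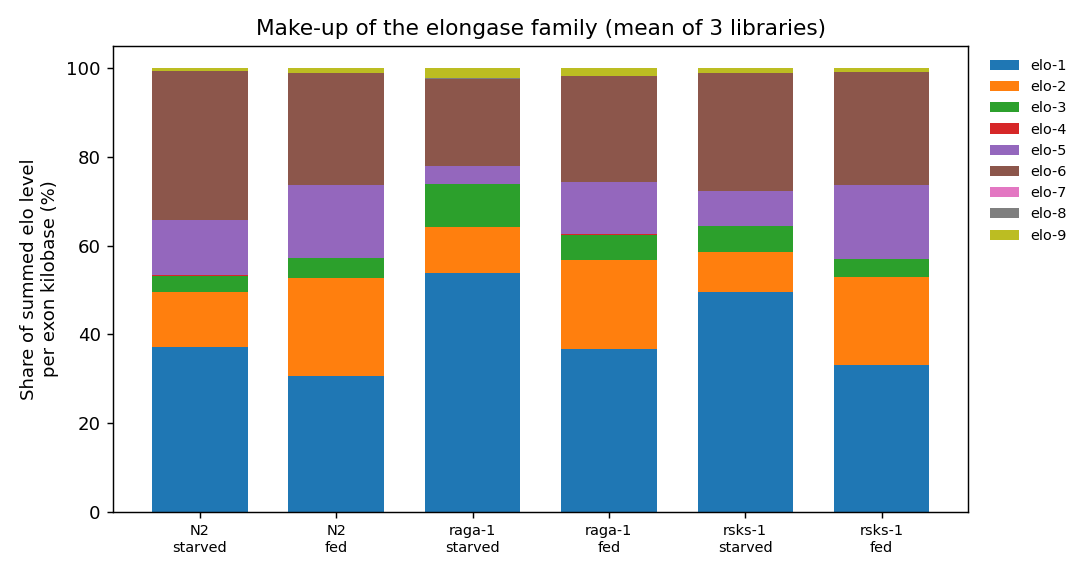
Share of each elongase gene in the summed family level per exon kilobase (y axis, percent) as the mean of 3 libraries in each of the 6 groups (x axis). The elo-5 segment is 4.05% in starved raga-1 and 16.6% in fed N2, and the segments of elo-4, elo-7 and elo-8 are hairlines at most.

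Across the 18 libraries the log2 levels of elo-5 and elo-6 had a Pearson correlation of 0.988, the highest among the 6 well-detected members, and the lowest was 0.464 between elo-6 and elo-9. The correlation of elo-3 with elo-9 was 0.918, and that of elo-3 with elo-2 was 0.912. These are descriptions over 6 groups of libraries, without a test. Among 5387 other named genes at 10 CPM or more, the most alike to elo-5 were elo-6, adk-1 (0.982) and ech-7 (0.974). Those most alike to elo-6 were ech-7 (0.989), elo-5 and the aconitase aco-1 (0.981). For elo-1 they were adk-1 (0.982), the isocitrate dehydrogenase idh-1 (0.979) and scpl-4 (0.977), and for elo-2 they were gldc-1 (0.981), sap-140 (0.980) and hpo-12 (0.979). For elo-3 they were mboa-3 (0.993), rsp-6 (0.988) and acs-1 (0.986), the acyl-CoA synthetase that acts on branched-chain fatty acids. For elo-9 they were mct-3 (0.991), the intestinal peptide transporter pept-1 (0.990), which is also among the intestine markers, and nkb-1 (0.989). By the same measure elo-9 held rank 890 of 5387 for elo-3, and elo-3 held rank 361 for elo-9.

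The partner enzymes of the elongation cycle rose with food as well. The ketoacyl reductase homologue let-767 had 313 ± 2.90 CPM starved and 447 ± 8.54 CPM fed in N2, and went from 84.9 ± 2.52 to 138 ± 8.0 CPM in raga-1 and from 217 ± 2.88 to 400 ± 9.68 CPM in rsks-1. The dehydratase homologue hpo-8 went from 186 ± 6.96 to 248 ± 5.33, from 83.1 ± 2.67 to 128 ± 6.68 and from 140 ± 2.21 to 276 ± 5.64 CPM. The enoyl reductase homologue art-1 went from 95.3 ± 4.69 to 363 ± 4.22, from 82.7 ± 3.59 to 158 ± 2.12 and from 108 ± 2.19 to 320 ± 9.52 CPM. All 3 were called higher on feeding in each genotype, where 36.5% of all genes were in N2, 29.4% in raga-1 and 35.7% in rsks-1. All 3 were lower in raga-1 than in N2, both starved and fed (25.7% and 34.4% of all genes), with let-767 furthest (log2 changes -1.88 and -1.70, SE 0.04 and 0.04). In starved rsks-1 let-767 and hpo-8 were lower (-0.53 and -0.41, SE 0.03 and 0.04) and art-1 was higher (0.19, SE 0.04).

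The enzymes that supply the substrate behaved differently from each other. The acetyl-CoA carboxylase pod-2, which makes malonyl-CoA, fell in N2 from 1157.2 ± 32.0 to 855 ± 34.6 CPM. In raga-1 it rose from 426 ± 15.6 to 661 ± 25.0 CPM and in rsks-1 from 626 ± 7.44 to 883 ± 27.8 CPM. The fatty acid synthase fasn-1 had 252 ± 20.4 CPM in starved and 770 ± 45.0 CPM in fed N2, and rose likewise from 238 ± 1.17 to 775 ± 29.4 CPM in rsks-1. In raga-1 it started at 458 ± 11.5 CPM and fell to 412 ± 10.9 CPM (log2 change -0.15, SE 0.04). Like elo-5 and elo-6, pod-2 was lower in starved raga-1 and rsks-1 than in starved N2 (log2 changes -1.44 and -0.89, SE 0.03 and 0.03), while fasn-1 was higher in starved raga-1 (0.86, SE 0.04).

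Genes that provide branched-chain precursors rose on feeding in 6 of 6 cases in N2 and in raga-1 and in 5 of 6 in rsks-1 (median log2 changes 1.36, 0.66 and 1.14), against 36.5%, 29.4% and 35.7% of all genes in N2, raga-1 and rsks-1. In N2 acs-1 led with 2.31 (SE 0.05), followed by the branched-chain ketoacid dehydrogenase subunits dbt-1 and bckd-1A (1.42 and 1.38, SE 0.05 and 0.05). Their raga-1 responses were smaller than in N2 in 5 of 6 cases and larger in 0 (28.8% and 21.8% of all genes), while those of elo-5 and elo-6 were larger. In starved raga-1 2 of 6 were higher and 3 lower than in N2 (27.0% and 25.7% of all genes), with a median log2 change of -0.05. There acs-1 was higher (0.35, SE 0.06), whereas elo-5 was lower. In fed raga-1 5 of 6 were lower and 1 higher than in N2 (34.4% and 28.9% of all genes), with acs-1 at -1.07 (SE 0.05).

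Of 9 genes for sphingolipid synthesis, which places fatty acids into ceramides, 6 rose and 1 fell on feeding in N2, where 36.5% and 37.4% of all genes did. The ceramide synthases hyl-1 and hyl-2 and the serine palmitoyltransferase subunit sptl-2 changed most (log2 changes 1.62, 1.44 and 1.5, SE 0.09, 0.06 and 0.06). In raga-1 6 rose and 2 fell (29.4% and 32.9% of all genes), and in rsks-1 6 rose and 1 fell (35.7% and 35.2%), with medians of 0.35 and 1.10 against 0.97 in N2. Of the 8 regulators of lipid genes that were matched, 6 were lower and 1 higher on feeding in N2, where 37.4% and 36.5% of all genes were, and the Mediator subunit mdt-15 fell furthest (-1.02, SE 0.03). The SREBP homologue sbp-1 was at -0.31 in N2 (SE 0.05), 0.08 in raga-1 (SE 0.05, not called) and -0.11 in rsks-1 (SE 0.05). In raga-1 1 rose and 4 fell (29.4% and 32.9% of all genes), and in rsks-1 1 rose and 5 fell (35.7% and 35.2%).

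The desaturases fat-1 to fat-7, which act beside the elongases in the same pathways, fell in 6 and rose in 1 of 7 cases on feeding in N2, against 37.4% and 36.5% of all genes. In rsks-1 5 rose and 2 fell (35.7% and 35.2% of all genes), and in raga-1 3 rose and 4 fell (29.4% and 32.9%). Among them fat-7, a stearoyl-CoA desaturase, was higher on feeding in all 3 genotypes (log2 changes 3.03, 1.51 and 4.27 in N2, raga-1 and rsks-1, SE 0.21, 0.26 and 0.25). Its group means were low, from 0.598 CPM in starved rsks-1 to 13.8 CPM in fed N2. Of the 6 that fell in N2, fat-5 went from a mean of 30.3 to 7.15 CPM and fat-3 from 1083.5 to 368 CPM.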

How the data were processed

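The authors deposited tables of expected counts for genes and isoforms, with no scaling for depth. Per the labels, reads were aligned with STAR in 2-pass mode to a genome named WBcel269, and the submitters' processing notes also name RSEM and DESeq2, versions not given. Positions and exon lengths come from the WBcel235 annotation by gene identifier, since the named build could not be matched. Sequence names tied 61362 of 61451 isoforms to a gene. Non-whole entries (0.962% of gene values, tolerance 0.005) were rounded for the tests. RSEM divides reads between close copies, and library totals of 9929323 to 18539402 counts limit the weakly expressed members.

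After filterByExpr (minimum count 10) and TMM scaling, edgeR 4.0.16 (R 4.3.3) gave a robust quasi-likelihood test from a fit of all 18 libraries with a mean per group and 12 residual degrees of freedom. The 10 comparisons were adjusted by Benjamini-Hochberg over 14073 genes, threshold 0.05. The SE is the log2 change over the square root of F, and the 95% intervals use the test's degrees of freedom. Floors of 3 counts cover counting error only. Alternatives were relative log expression factors, library totals, unfiltered genes, the replicate number as a block, fits restricted to the compared groups, isoform sums, DESeq2 1.42.0 and each library left out. The method was tested on simulated data. Replicates were distinct (mean chi-square 2.12 to 5.99 where counting error gives about 1). Named were all members, all partner and substrate enzymes, up to 3 members of each other list with the largest called changes, and the 3 genes most alike to each member. Added to these after their values were seen were sbp-1, fat-7 outside N2, acs-1 in mutants, act-5, ges-1, ifb-2 and the overlapping genes. The members and lists were chosen with earlier results of these data known. The name lpd-1 had no match. Tables used Python 3.11.15, pandas 2.3.3 and NumPy 2.4.6, figures matplotlib 3.10.9. No library was left out.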

Additional observations from a re-analysis of the deposited data

Results flagged for a closer look

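The feeding response differed between genotypes, by a test of the difference itself, in 16 of the 21 cases given by 7 tested members and 3 pairs of genotypes. Over all genes tested, 50.5% differed between raga-1 and N2, 26.6% between rsks-1 and N2, and 44.0% between raga-1 and rsks-1. For raga-1 minus N2 the differences in log2 change were 1.32 for elo-5, 0.884 for elo-6, 0.310 for elo-2, -0.777 for elo-3 and -1.17 for elo-9. For rsks-1 minus N2 they were 1.64 for elo-5, 1.32 for elo-6, 1.28 for elo-2, 0.650 for elo-1 and 0.213 for elo-3. For raga-1 minus rsks-1 they were -0.990 for elo-3, -0.966 for elo-2, -0.865 for elo-9, -0.735 for elo-1, -0.439 for elo-6 and -0.322 for elo-5. The first and second sets share the N2 libraries. The third set is the first minus the second and uses the same mutant libraries. The 21 cases are therefore not independent of each other. Groups of 3 libraries are too small for a check of single libraries that stand apart.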

How the results depend on the processing

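Under every alternative run, the number of elongase genes called in each of the 10 comparisons stayed within 1.5 times its value. Single genes turned as follows. For elo-1 the raga-1 minus N2 response (-0.0849) was 0.116 with library totals and 0.0117 with only the compared libraries, and the fed rsks-1 change of elo-3 (-0.0474) was 0.0202 with library totals. With a library left out, elo-4 turned in sign in 7 cases, over ranges of -1.08 to 0.304 (rsks-1 minus N2 response), -0.859 to 0.302 (starved raga-1), -0.187 to 0.737 (fed rsks-1) and -0.302 to 0.407 (feeding in raga-1). Library totals moved the median log2 change of all genes on feeding in N2 from -0.07 to -0.37 and that of fed raga-1 against N2 from 0.01 to 0.33. The causes were not tested. Deviations of same-numbered replicates correlated at -0.0470 to 0.0317 over 21 pairs, so no pairing by number was seen, though a weak one could be missed. The replicate block left 6, 6 and 6 members called on feeding in N2, raga-1 and rsks-1. It changed no call of a member. Depth limits elo-4, elo-7 and elo-8.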
